A study of Mus musculus with 9 samples.

Results

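Transcripts of 10 mast cell genes were followed in RNA-Seq of mouse stomach glands, out of 18423 genes in the expression table. The 10 genes were taken by name, and were chosen by measured values in that the FPKM of Mcpt1 and Mcpt2 had stood out between wild type and transgenic glands. They are the chymase-type proteases Mcpt1, Mcpt2, Mcpt4 and Cma1, the tryptases Tpsb2 and Tpsab1, the carboxypeptidase Cpa3, and the receptor genes Kit, Ms4a2 and Fcer1a. The question asked of them was how the genes of mucosal mast cells compare with those of connective tissue mast cells.

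Glands were scraped from the stomach corpus of 3 groups of mice after EDTA treatment, with 3 libraries per group. WT glands came from wild type mice. The group named Ctrl has the genotype Atp4bCre; Rosa26NICD: these mice are therefore transgenic, and Cre driven by the parietal cell gene Atp4b switches on the intracellular domain of Notch from the Rosa26 locus. The group named Arid1a_Het has the genotype Atp4bCre; Rosa26NICD; Arid1aflox/+, so it carries the same transgenes and can also lose 1 copy of Arid1a, a subunit of the SWI/SNF chromatin remodelling complex. Tumor regions of the corpus were dissected, or the matching region where the stomach was normal. The age and sex of the mice are not given in the sources used here. Cre is thus limited to cells in which a parietal cell promoter is or was active, and not aimed at mast cells. Nothing in the labels says that the replicate libraries are from separate animals, so p-values here speak of the spread among the libraries, which may be technical in part.

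Values are FPKM, the number of fragments per kilobase of gene length scaled to the mapped fragments of the library, and so they are per length. Depth was between 22651582 and 29478481 reads in genes, worked out from the values. The genes that the alleles carry or delete were read first. Arid1a stood at 13.5, 7.79 and 12 FPKM in WT, at 14.9, 13.3 and 16.2 FPKM in Ctrl, and at 8.94, 5.90 and 6.96 FPKM in Arid1a_Het, below every Ctrl library but overlapping WT, and it was not called in Arid1a_Het against Ctrl (limma adjusted p = 0.299). Notch1 reached 7.10, 8.37 and 8.05 FPKM in Ctrl and 8.17, 6.59 and 6.83 FPKM in Arid1a_Het, against 3.59, 1.83 and 2.14 FPKM in WT. The gland genes that fit the labelled tissue were present in all 9 libraries: Pgc, a pepsinogen gene of chief cells, was at least 5474 FPKM, and Atp4a, the proton pump gene of parietal cells, was at least 90.5 FPKM. Ctrl 1 and Arid1a_Het 3 stood apart, with 2812 and 1081 FPKM in sum over 7 exocrine pancreas genes, against at most 1.93 FPKM in the other libraries. Results were therefore also computed without both.

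Mast cells mature in tissues from circulating progenitors and depend on Kit, the receptor for stem cell factor. Their granules hold serine proteases bound to proteoglycan. In the mouse, mucosal mast cells, which lie within and beneath epithelia, are known for the chymases encoded by Mcpt1 and Mcpt2, while connective tissue mast cells are known for Mcpt4, Cma1, the tryptases Tpsb2 and Tpsab1, and Cpa3. Both kinds are triggered through the high-affinity IgE receptor, whose alpha chain is Fcer1a and whose beta chain is Ms4a2. In the stomach and gut, mucosal mast cells are known to multiply in worm infection.

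The 4 chymase-type genes lie together on chromosome 14 within 121 kb (GRCm38, GENCODE M21). Cma1 is at chr14:55941451-55944675 on the minus strand, Mcpt1 at chr14:56017971-56020384 on the plus strand, Mcpt2 at chr14:56042041-56044642 on the plus strand, and Mcpt4 at chr14:56059629-56062313 on the minus strand. The tryptase genes are neighbours on chromosome 17, Tpsab1 at chr17:25343245-25345562 on the minus strand and Tpsb2 at chr17:25366305-25369098 on the plus strand. The coding sequences of Mcpt1 and Mcpt4 were 86.4% identical, those of Mcpt1 and Mcpt2 80.9%, and those of Mcpt2 and Mcpt4 78.7%. Cma1 was 60.7% to 63.0% identical to these genes. The first 90 coding bases of the close relatives are printed because reads from such stretches can fit more than 1 of the genes, and bases that differ from Mcpt1 are in capitals.
Mcpt1: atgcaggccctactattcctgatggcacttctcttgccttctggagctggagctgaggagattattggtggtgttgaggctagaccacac
Mcpt2: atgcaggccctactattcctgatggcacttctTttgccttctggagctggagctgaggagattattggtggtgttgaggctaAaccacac
Mcpt4: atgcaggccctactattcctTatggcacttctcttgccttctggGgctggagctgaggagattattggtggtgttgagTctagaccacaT
In this stretch Mcpt2 differed from Mcpt1 at 2 bases and Mcpt4 at 4 bases. The longest run that transcripts of Mcpt1 shared with Mcpt2 was 49 bases, and with Mcpt4 it was 46 bases. Of 50-base windows, none in the Mcpt1 and Mcpt2 transcripts, and 58 of 1059 (5.48%) in the Mcpt4 transcript, occurred in a transcript of another gene, there Cma2 and Mcpt9. How the authors counted reads that fit several genes is not given in the sources used here, so the split between the close relatives is uncertain to that extent.

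Promoters are printed for the genes of the locus with a RefSeq entry, since Mcpt1 and Mcpt4 stood together against Cma1 in the values that follow. Each is the 250 bases before the start in GRCm38.p6, 5′ to 3′ along the gene. Capitals mark GATAA, the core bound by GATA factors, and CAGAC, a core bound by SMAD factors, or their reverse complements TTATC and GTCTG.
Mcpt1, chr14:56017714-56017963, plus strand: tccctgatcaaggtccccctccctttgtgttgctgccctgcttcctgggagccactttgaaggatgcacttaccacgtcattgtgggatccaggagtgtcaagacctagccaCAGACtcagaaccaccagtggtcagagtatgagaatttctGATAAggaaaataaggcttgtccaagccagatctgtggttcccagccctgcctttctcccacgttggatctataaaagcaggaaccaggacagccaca
Mcpt4, chr14:56062311-56062560, minus strand: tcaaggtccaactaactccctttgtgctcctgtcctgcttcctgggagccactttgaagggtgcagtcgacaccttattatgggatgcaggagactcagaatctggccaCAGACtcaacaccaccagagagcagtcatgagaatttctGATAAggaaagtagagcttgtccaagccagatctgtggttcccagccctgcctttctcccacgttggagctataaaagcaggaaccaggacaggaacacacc
Cma1, chr14:55944676-55944925, minus strand: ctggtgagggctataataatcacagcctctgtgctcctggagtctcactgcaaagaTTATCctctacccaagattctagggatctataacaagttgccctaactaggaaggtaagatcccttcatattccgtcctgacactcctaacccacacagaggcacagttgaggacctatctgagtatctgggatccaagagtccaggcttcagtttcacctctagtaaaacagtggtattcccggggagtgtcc
The Mcpt1 and Mcpt4 promoters were 81.5% identical, against 47.6% for Mcpt1 and Cma1 and 48.4% for Mcpt4 and Cma1. Both Mcpt1 and Mcpt4 held GATAA, at positions -98 and -102 from the start, and CAGAC, at -138 and -141. In Cma1 the GATA letters were on the other strand at -194, and CAGAC was not in the window. Among the 7 of 10 genes with an entry, 6 held GATAA or TTATC, 2 held CAGAC or GTCTG, 1 held CATGTG or CACATG (the letters of an MITF site) and 0 held GTGGGAA or TTCCCAC (those of the Notch partner RBPJ). Of all 32851 RefSeq promoters cut in the same way, the shares were 22.6%, 42.2%, 12.3% and 5.42%. None of the printed matches overlaps another, and a match is a description of the letters only.

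Mcpt1 and Mcpt2, the mucosal chymases, were high in both transgenic groups and low in WT. Mcpt1 stood at 11.5, 3.7 and 17.5 FPKM in the WT libraries, at 169.9, 298 and 313 FPKM in Ctrl and at 264, 148 and 271 FPKM in Arid1a_Het. The lowest transgenic library was thus far above the highest WT library, and the transgenic groups overlapped each other. Mean Mcpt1 was 10.9 ± 6.92 FPKM in WT, 260 ± 78.6 in Ctrl and 228 ± 68.9 in Arid1a_Het (SD, n = 3), or 23.9-fold and 20.9-fold the WT mean. Mcpt2 stood at 27.5, 12 and 27.7 FPKM in WT, at 181, 298 and 320 FPKM in Ctrl and at 335, 237 and 389 FPKM in Arid1a_Het. Its group means of 22.4 ± 9.01, 266 ± 74.6 and 320 ± 77.3 FPKM (SD, n = 3) put Ctrl at 11.9-fold and Arid1a_Het at 14.3-fold the WT mean. As these are bulk libraries, more mast cells and more RNA per mast cell cannot be told apart.

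Mcpt4, a chymase counted here with the connective tissue genes, differed from WT by a larger ratio than either mucosal chymase. It stood at 1.17, 0.998 and 0.435 FPKM in WT, at 42.3, 42.2 and 84.1 FPKM in Ctrl, and at 31.1, 48.5 and 34.4 FPKM in Arid1a_Het. All 6 transgenic libraries were above all 3 WT libraries. The group means were 0.869 ± 0.386, 56.2 ± 24.2 and 38.0 ± 9.25 FPKM (SD, n = 3), 64.7-fold and 43.7-fold over WT. The WT values rest on few reads, the lowest of them on 10.

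The other connective tissue genes did not show this separation between WT and Ctrl. Cma1, the remaining chymase, stood at 2.04, 1.10 and 2.85 FPKM in WT, at 2.22, 9.40 and 2.24 FPKM in Ctrl, and at 4.97, 11.8 and 5.35 FPKM in Arid1a_Het. Ctrl 1 and Ctrl 3 lay within the WT range, while Ctrl 2 lay above it. The tryptase Tpsb2 stood at 8.84, 3.48 and 8.20 FPKM in WT, at 5.67, 33.5 and 9.24 FPKM in Ctrl, and at 21.2, 40.8 and 16.9 FPKM in Arid1a_Het. Its relative Tpsab1 stood at 5.55, 1.31 and 9.54 FPKM in WT, at 8.95, 48.8 and 6.29 FPKM in Ctrl, and at 30.4, 27.8 and 11.8 FPKM in Arid1a_Het. Cpa3, the carboxypeptidase that trims peptides in the granule, stood at 4.09, 1.45 and 3.89 FPKM in WT, at 2.70, 12.2 and 4.88 FPKM in Ctrl, and at 9.62, 12 and 5.74 FPKM in Arid1a_Het. In each of these 4 genes Ctrl 2 was the highest Ctrl library by far, at least 1 Ctrl library fell within the WT range, and every Arid1a_Het library was above every WT library. The ratios of the Ctrl mean to the WT mean were 2.32 for Cma1, 2.36 for Tpsb2, 3.90 for Tpsab1 and 2.10 for Cpa3. For Arid1a_Het they were 3.69, 3.85, 4.27 and 2.90.

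**Figure D1:**
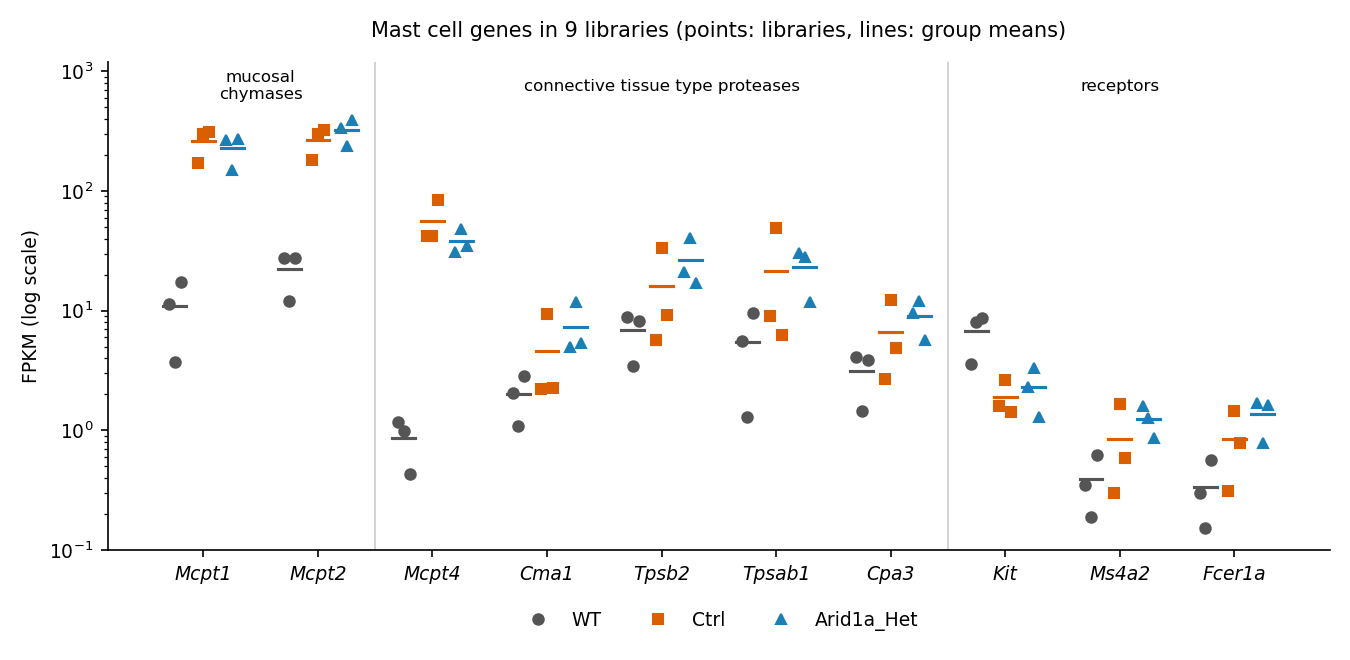
FPKM of the 10 mast cell genes on a log axis, with a point for each library of the WT, Ctrl and Arid1a_Het groups and a line at each group mean. Mcpt1, Mcpt2 and Mcpt4 show a gap between all WT and all transgenic libraries, while in Cma1, Tpsb2, Tpsab1 and Cpa3 the Ctrl libraries spread from the WT range upward, and Kit lies lower in the transgenic groups.

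Kit did not follow the proteases. It stood at 3.60, 8.12 and 8.67 FPKM in WT, at 1.59, 2.62 and 1.44 FPKM in Ctrl, and at 2.31, 3.31 and 1.29 FPKM in Arid1a_Het. All transgenic libraries were below all WT libraries, and the WT mean of 6.80 ± 2.78 FPKM was 3.61-fold the Ctrl mean and 2.95-fold the Arid1a_Het mean. Kit is also made by cells other than mast cells, among them the interstitial cells of Cajal in the muscle wall and melanocytes. Of 5 listed genes of those cells in the table, Ano1 was the highest, with 16.7 to 31.1 FPKM in WT, 27.8 to 39.9 in Ctrl and 15.8 to 42.6 in Arid1a_Het. The listed Cajal genes Thbs4 and Etv1 were too low to be tested. Mean Thbs4 was 0.135 FPKM in WT, 0.0995 in Ctrl and 0.0533 in Arid1a_Het, lower in the transgenic groups as Kit was. Mean Etv1 was 0.384, 0.570 and 0.418 FPKM in the same groups. The listed melanocyte genes differed in level: Dct was at most 0.0456 FPKM, while Pmel was between 1.29 and 2.32 FPKM over the 9 libraries. Pmel was not called against WT (limma adjusted p = 0.937 in Ctrl and 0.967 in Arid1a_Het). The sum over these genes, most of it Ano1, was 18.6 to 33.6 FPKM in WT, 30.3 to 43.2 in Ctrl and 17.8 to 45.3 in Arid1a_Het. Ano1 is made by epithelia too, and the part of any other Kit-bearing cell in the Kit values was not tested.

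The IgE receptor genes were near the limit of what these libraries resolve. Ms4a2 stood at 0.352, 0.189 and 0.627 FPKM in WT, at 0.298, 1.66 and 0.592 FPKM in Ctrl, and at 1.60, 1.27 and 0.856 FPKM in Arid1a_Het, from 14 to 138 reads. Fcer1a stood at 0.302, 0.152 and 0.561 FPKM in WT, at 0.309, 1.46 and 0.779 FPKM in Ctrl, and at 1.68, 0.779 and 1.62 FPKM in Arid1a_Het, from only 4 to 48 reads. For both, WT and Ctrl overlapped and WT and Arid1a_Het did not. Both passed the filter for testing, which asks for 1 FPKM in 3 libraries, with the smallest number of libraries allowed and with no WT library among them. The gene length behind the Ms4a2 values, worked out from reads and FPKM, was 2815 bases against 1010 bases in its annotated coding transcript, which lowers its level per length. The same holds for Kit with 8918 against 5214 bases and Tpsab1 with 2096 against 1156 bases, so that levels of these 3 genes are understated next to the others. For Mcpt1 the length worked out was 514 bases, 0.5 of the 1028 bases its transcript has with RefSeq ends, whereas Mcpt4 gave 991 against 990 bases and Cma1 1075 against 1074. Read numbers are known only up to a common factor per gene, and a factor of 2 would bring Mcpt1 to its transcript's length. Its read numbers are therefore not printed. If 514 bases was the length used, Mcpt1 levels, its share among the proteases and its ratio to other genes would be overstated by that factor in every library, with its fold between groups unmoved.

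The makeup of the protease transcripts differed between WT and the transgenic groups as well as their amount. The 7 protease genes summed to 60.7, 24.0 and 70.1 FPKM in the WT libraries, to 413, 742 and 739.9 FPKM in Ctrl, and to 696, 526 and 734 FPKM in Arid1a_Het. Mcpt1 and Mcpt2 together took 64.3%, 65.3% and 64.5% of that sum in WT, 85.0%, 80.3% and 85.6% in Ctrl, and 86.0%, 73.2% and 89.9% in Arid1a_Het. Mucosal chymases were thus the larger share in every library, WT included, and the share was higher in all 6 transgenic libraries. The 4 genes Tpsb2, Tpsab1, Cpa3 and Cma1 took 33.8%, 30.5% and 34.9% in WT, 4.73%, 14.0% and 3.06% in Ctrl, and 9.50%, 17.6% and 5.42% in Arid1a_Het. Mcpt4 took 1.93%, 4.15% and 0.62% in WT, 10.2%, 5.69% and 11.4% in Ctrl, and 4.46%, 9.22% and 4.68% in Arid1a_Het. The share of Mcpt2 alone overlapped between the groups, at 39.5% to 49.97% in WT, 40.2% to 43.9% in Ctrl and 45.0% to 53.0% in Arid1a_Het, whereas Mcpt1 went from 15.4% to 25.0% in WT to 40.2% to 42.3% in Ctrl and 28.2% to 38.0% in Arid1a_Het. These shares are of FPKM, and the understated length-scaled level of Tpsab1 and the unsettled length of Mcpt1 enter them.

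**Figure D2:**
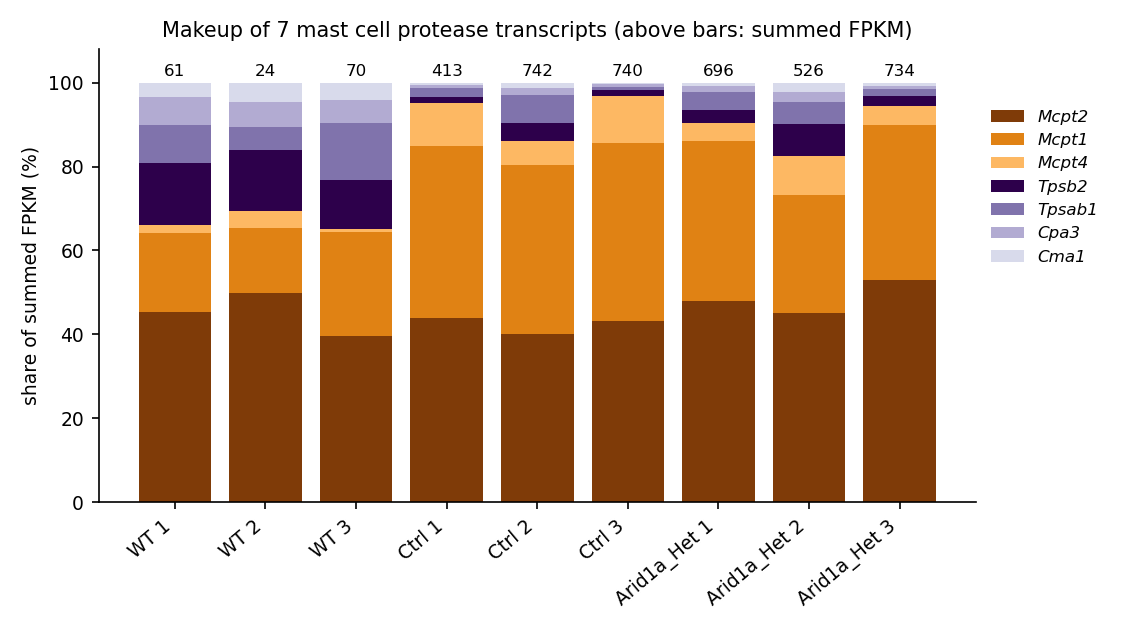
Share of each of 7 mast cell protease genes in their summed FPKM, in percent, for each of the 9 libraries, with the sum in FPKM above each bar. Mcpt1, Mcpt2 and Mcpt4 (brown and orange) fill more of the bar in the transgenic libraries, and the tryptases, Cpa3 and Cma1 (purple) shrink from 30.5% to 34.9% in WT to at most 17.6% there.

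On the log2(FPKM + 1) scale, the mean of the mucosal genes Mcpt1 and Mcpt2 exceeded the mean of the 5 connective tissue genes by 2.02, 1.62 and 2.26 in WT, by 4.45, 3.57 and 4.93 in Ctrl, and by 4.13, 2.91 and 4.67 in Arid1a_Het. The mean differences were 1.97 ± 0.32, 4.32 ± 0.69 and 3.90 ± 0.90 (SD, n = 3). Transgenic libraries did not overlap with WT, and the transgenic groups overlapped. Both parts of this measure were higher than in WT: the mucosal mean by 4.09 in Ctrl and 4.13 in Arid1a_Het, and the connective tissue mean by 1.74 and 2.19. No p is given, since the genes were chosen with their levels known.

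Some of the connective tissue genes kept close to fixed proportions across the libraries. Cma1 was between 0.231 and 0.391 of Tpsb2 in FPKM over the 9 libraries, and Cpa3 between 0.293 and 0.528 of Tpsb2, although Tpsb2 itself ran from 3.48 to 40.8 FPKM. Tpsab1 was less tied to it, between 0.375 and 1.58 of Tpsb2. Mcpt2 in contrast was 3.11, 3.45 and 3.38 times Tpsb2 in WT, 32.0, 8.90 and 34.6 times in Ctrl, and 15.8, 5.80 and 23.0 times in Arid1a_Het. The libraries that were high differed between these genes. In Ctrl, library 2 was highest for Cma1, Tpsb2, Tpsab1, Cpa3, Kit, Ms4a2 and Fcer1a, and library 3 for Mcpt1, Mcpt2 and Mcpt4. In Arid1a_Het, library 3 was highest for Mcpt1 and Mcpt2 and lowest for Tpsb2, Tpsab1, Cpa3, Kit and Ms4a2. In WT, library 2 was the lowest for 8 of the 10 genes, all but Mcpt4 and Kit.

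**Figure D3:**
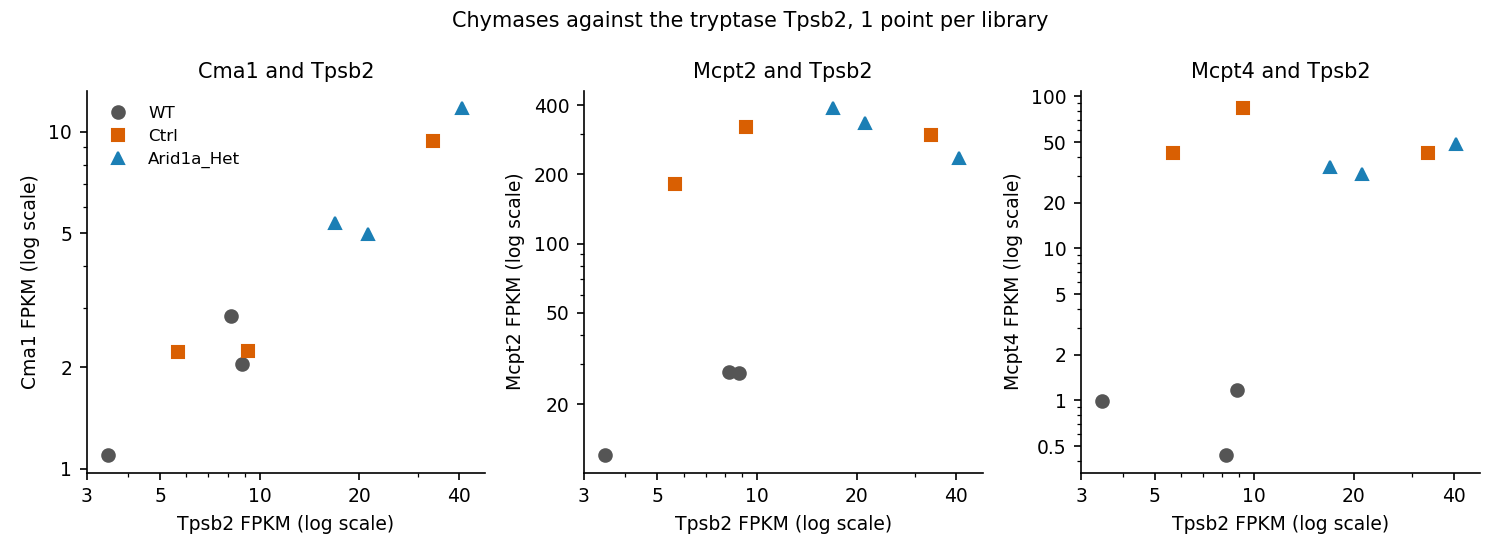
Cma1, Mcpt2 and Mcpt4 plotted against the tryptase Tpsb2, all in FPKM on log axes, with a point for each of the 9 libraries. Cma1 follows Tpsb2 across all groups at a ratio of 0.231 to 0.391, whereas for Mcpt2 and Mcpt4 the WT libraries lie far below transgenic libraries that have similar Tpsb2.

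The comparison of Ctrl with WT was the one from which these genes were chosen, so its values only describe them, no p-values are given, and nothing is read from the counts of calls. Log2 fold changes, on the log2(FPKM + 1) scale, were 4.62 (SE 0.48) for Mcpt1, 3.56 (SE 0.35) for Mcpt2 and 4.88 (SE 0.30) for Mcpt4. They were 0.71 (SE 0.48) for Cma1, 0.85 (SE 0.59) for Tpsb2, 1.5 (SE 0.76) for Tpsab1 and 0.75 (SE 0.47) for Cpa3. Kit had -1.38 (SE 0.33), Ms4a2 0.36 (SE 0.28) and Fcer1a 0.43 (SE 0.27). Adding 1 FPKM understates the changes of the low genes. By limma, 3 of the 10 genes were called higher and 1 lower, beside 7.01% of all 11209 genes tested that were called higher, 3.04% lower and 10.1% in either direction. Their groups did not overlap in 4 of 10 genes, beside 43.7% of all genes. Kit was no longer among the calls without Ctrl 1, Ctrl 2, Ctrl 3, WT 2 or WT 3 (log2 fold changes of all alternatives from -1.79 to -1.19). The median over the 10 genes was 0.80 and over all genes tested 0.24, which became 0.01 when libraries were scaled to their median ratio.

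The comparison of Arid1a_Het with WT shares the WT libraries with the one above, and both groups compared with WT carry the same transgenes, so its values again describe the chosen genes and are given without p-values. Log2 fold changes were 4.43 (SE 0.48) for Mcpt1, 3.84 (SE 0.35) for Mcpt2 and 4.38 (SE 0.30) for Mcpt4. They were 1.43 (SE 0.48) for Cma1, 1.79 (SE 0.59) for Tpsb2, 2.06 (SE 0.76) for Tpsab1 and 1.31 (SE 0.47) for Cpa3. Ms4a2 had 0.69 (SE 0.28), Fcer1a 0.80 (SE 0.27) and Kit -1.21 (SE 0.33). By limma, Mcpt1, Mcpt2 and Mcpt4 were called higher and the other 7 genes were not called, beside 2.75% of all genes called in either direction and 2.06% higher. Kit became a call without WT 1. The groups did not overlap in 10 of 10 genes, 9 of them higher and Kit lower, beside 10.6% of all genes tested that were higher without overlap, 8.57% lower and 19.2% in all. Nothing is read from these counts, since the genes were chosen on the difference from WT. Ms4a2 and Fcer1a were also tested only through transgenic libraries. The median was 1.61 over the 10 genes and 0.02 over all genes tested.

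**Figure D4:**
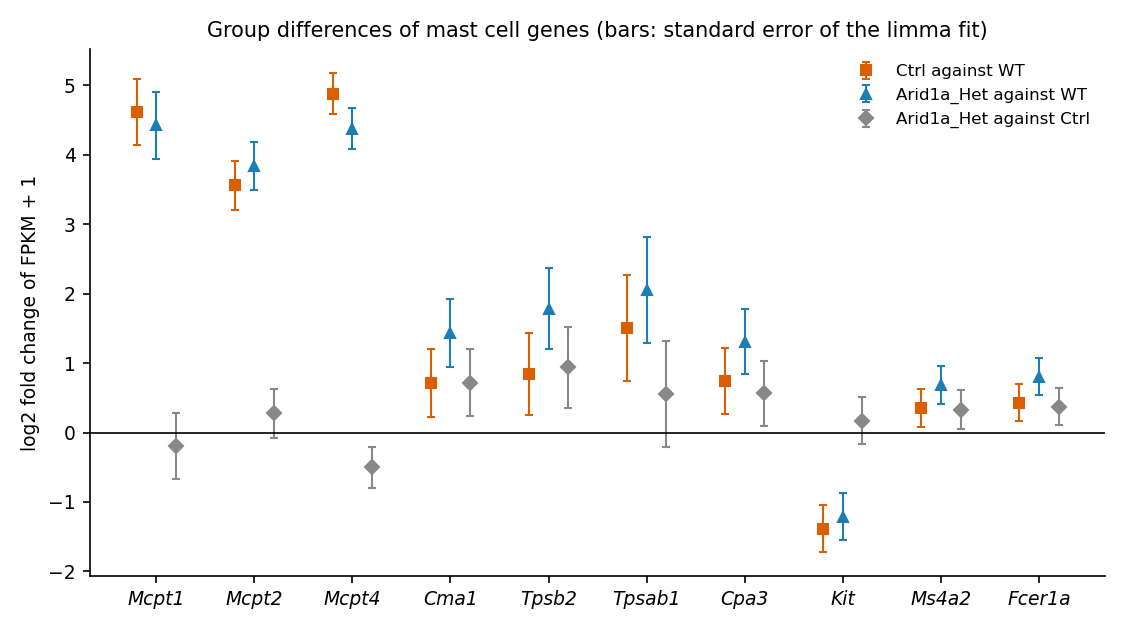
Log2 fold changes of FPKM + 1 for the 10 genes in each of the 3 comparisons, with the standard error of the limma fit. Mcpt1, Mcpt2 and Mcpt4 lie between 3.56 and 4.88 in both comparisons with WT, Kit lies below 0 there, and the values of Arid1a_Het against Ctrl lie between -0.50 and 0.94.

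Within the transgenic groups, a lost copy of Arid1a went with no called change in any of these genes. None of the 10 was called by limma, beside 0.00892% of all genes (1 gene), none had an unadjusted p under 0.05 (the lowest was 0.124), and none was called by voom on reads. Adjusted p-values ran from 0.515 to 0.872. Log2 fold changes ran from -0.50 (SE 0.30) for Mcpt4 to 0.94 (SE 0.59) for Tpsb2, with 0.72 (SE 0.48) for Cma1. In 0 of 10 genes were the groups without overlap, beside 24.7% of all genes tested, 2.41% higher and 22.2% lower. The median over the 10 genes was 0.35, against -0.16 over all genes, which became 0.03 under median-ratio scaling. That scaling turned the value of Mcpt1 from -0.19 to 0.03.

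Ratios between genes of the same library were also compared between Arid1a_Het and Ctrl, with an exact two-sided permutation test that cannot go below p = 0.1 in this design. Mcpt2 was 1.07, 1.0 and 1.02 times Mcpt1 in Ctrl, 1.27, 1.60 and 1.44 times in Arid1a_Het, and 2.4, 3.25 and 1.58 times in WT. Ctrl lay at the bottom with little spread, and all Arid1a_Het libraries were above it. The geometric means of 1.43 and 1.03 differed by 0.47 on the log2 scale (exact permutation p = 0.1, adjusted p = 0.3 over 3 ratios). Mcpt2 over Mcpt4 had geometric means of 8.42 in Arid1a_Het and 4.87 in Ctrl (exact permutation p = 0.2, adjusted p = 0.3), and Mcpt4 over Cma1 had 5.49 and 14.8 (exact permutation p = 0.3, adjusted p = 0.3). None of the 3 ratios could pass a threshold of 0.05, which lies below the smallest p of this test.

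Further mast cell genes were less uniform than the proteases. Of 31 listed genes 30 were in the table and 19 could be tested, and in Ctrl against WT 4 rose and 1 fell, beside 7.01% and 3.04% of all genes tested. Srgn, the core protein of the granule proteoglycan serglycin, which other blood cells make too, stood at 1.33, 2.56 and 0.784 FPKM in WT, at 10.3, 24.0 and 18.1 in Ctrl, and at 3.46, 4.59 and 31.4 in Arid1a_Het. In Ctrl against WT its log2 fold change was 2.83 (SE 0.67, limma adjusted p = 0.0312). Hs3st1, a heparan sulfate sulfotransferase, rose by 1.80 (SE 0.39, adjusted p = 0.0234), Il1rl1, the receptor for interleukin 33, by 1.13 (SE 0.29, adjusted p = 0.0404) and Csf2rb, a cytokine receptor chain, by 1.65 (SE 0.44, adjusted p = 0.0460), while Ltc4s, the leukotriene synthase, fell by 0.71 (SE 0.18, adjusted p = 0.0413). None of the 3 WT libraries reached 1 FPKM for Il1rl1 or Csf2rb, so these were tested only through the transgenic libraries, where they were high, and add nothing to the count. In Arid1a_Het against WT none of the 19 was called by limma or voom, beside 2.75% of all genes called by limma. An unadjusted p under 0.05 was found for 10 of the 19, with no share over all genes given for that measure. Cma2, Il1rl1, Csf2rb and Csf2rb2 are among them and were tested only through transgenic libraries, so nothing is read from this count. The list median was 0.40 in Ctrl and 0.18 in Arid1a_Het, against 0.24 and 0.02 over all genes. Log2 fold changes were above 0 in 12 of the 19 genes in Ctrl and in 11 in Arid1a_Het. Of the 19, those with log2 fold changes below 0 in both comparisons and not called were Mitf, Slc18a2, Alox5, Alox5ap and Rab27b. Mean Mitf was 2.91 FPKM in WT, 0.798 in Ctrl and 1.02 in Arid1a_Het (limma adjusted p = 0.0507 and 0.136). Mean Slc18a2 was 2.44, 1.09 and 0.935 FPKM in the same groups (adjusted p = 0.0933 and 0.128), and it is also among the genes listed for the enterochromaffin-like cell, described below. Mean Alox5 was 4.51, 2.95 and 1.88 FPKM (adjusted p = 0.184 and 0.0986). The calls for Hs3st1 and Srgn were lost without any single Ctrl library and without WT 2 or WT 3, and that of Srgn also without WT 1 (adjusted p up to 0.0910 and 0.112). Il1rl1 was lost without Ctrl 2, Ctrl 3, Arid1a_Het 1 or any WT library and Ltc4s without any Ctrl or WT library or Arid1a_Het 1 (adjusted p up to 0.126 and 0.104). Csf2rb was lost in 10 of 16 alternatives, among them each single Ctrl or WT library left out (adjusted p up to 0.146).

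Several listed mast cell genes were barely detected, among them the receptors Mrgprb1 and Mrgprb2, at most 0.211 and 0.655 FPKM, and the transcription factor Gata1, at most 0.212 FPKM. The signalling genes behind the IgE receptor had 0 of 10 tested genes called by limma in any comparison, and 0 by voom. The limma shares of all genes were 10.1% in Ctrl against WT, 2.75% in Arid1a_Het against WT and 0.00892% between the transgenic groups. With 10 genes, a count of 0 lies near these shares, and nothing is read from it. In Ctrl against WT 5 of these signalling genes had an unadjusted p under 0.05 and in Arid1a_Het against WT 1 did, with no share over all genes given for that measure. Lat2 and Lcp2, among the 5, were tested only through transgenic libraries, so nothing is read from these counts either. Among the neighbours of Mcpt1 and Mcpt2 on chromosome 14, Cma2 alone could be tested, and it was not called. Cma2, a chymase gene, stood at 0.0455, 0 and 0 FPKM in WT, at 0.0931, 0.680 and 1.05 in Ctrl and at 5.79, 0.597 and 2.51 in Arid1a_Het. Its log2 fold change in Arid1a_Het against WT was 1.73 (SE 0.45, limma adjusted p = 0.0827). As no WT library reached 1 FPKM, Cma2 was tested only through transgenic libraries, where it was high, and its test supports nothing. Part of the Mcpt4 transcript matches Cma2, as noted above, so low Cma2 values beside high Mcpt4 are uncertain. The basophil protease gene Mcpt8 was at most 1.53 FPKM and Ctsg, the cathepsin G gene of neutrophils and monocytes, at most 0.103 FPKM.

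Genes that feed or shape mast cells were read from a list of 25, of which 24 were in the table and 10 could be tested. Il33, an epithelial alarmin that acts on mast cells, stood at 33.7, 38.4 and 62.3 FPKM in WT, at 124, 117 and 281 in Ctrl, and at 239, 114 and 248 in Arid1a_Het. It rose in Ctrl by 1.86 (SE 0.41, limma adjusted p = 0.0247) and in Arid1a_Het by 2.10 (SE 0.41, adjusted p = 0.0315). Tgfb1, a growth factor under which cultured mast cells express Mcpt1, rose in Ctrl by 1.59 (SE 0.32, adjusted p = 0.0194) and had 1.43 (SE 0.32, adjusted p = 0.0517) in Arid1a_Het. Kitl, which encodes stem cell factor, was 14.4 to 27.6 FPKM in WT, 24.1 to 28.4 in Ctrl and 23.5 to 25.7 in Arid1a_Het, with adjusted p = 0.252 and 0.627 against WT. The cytokine genes Il9 and Il13 were at most 0.126 and 0.0357 FPKM. The other 7 genes tested were not called in either comparison with WT. That made 2 of 10 called in Ctrl and 1 of 10 in Arid1a_Het, all higher, beside 7.01% and 2.06% of all genes called higher. The Ctrl calls were lost without Ctrl 1, Ctrl 3 or WT 2, and that of Il33 also without WT 1 and that of Tgfb1 without Ctrl 2 or WT 3 (adjusted p up to 0.0855 and 0.0794). The Arid1a_Het call of Il33 was lost without Arid1a_Het 1, Arid1a_Het 3 or any WT library, and without both pancreas libraries (adjusted p up to 0.143).

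Inhibitors of serine proteases were the last list of this kind, with 9 of 12 tested. In Ctrl, Serpinb6b (2.56, SE 0.55, limma adjusted p = 0.0227), Serpinb9 (1.60, SE 0.37, adjusted p = 0.0284) and Serpina3n (1.67, SE 0.45, adjusted p = 0.0464) rose and none fell. Of all genes tested, 7.01% were called higher there and 3.04% lower. Serpinb6b had no WT library at 1 FPKM and was tested only through the transgenic libraries, so it adds nothing to the count. Serpinb6b, an intracellular serpin, stood at 0.294, 0.915 and 0.196 FPKM in WT, at 7.82, 6.35 and 8.37 in Ctrl and at 5.55, 2.79 and 22.2 in Arid1a_Het, where it rose by 2.54 (SE 0.55, adjusted p = 0.0439). The voom fit called 0 of the 9 in either comparison. The Ctrl calls of all 3 serpins were lost without any single Ctrl library and without WT 2 or WT 3, and those of Serpinb9 and Serpina3n also without WT 1 (adjusted p up to 0.113). The same was true of the Arid1a_Het call of Serpinb6b without Arid1a_Het 1 or without any single Ctrl or WT library (adjusted p up to 0.155).

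Markers of other cells moved along with part of this. Summed neutrophil markers were 1.41 to 3.43 FPKM in WT, 42.8 to 98.9 in Ctrl, and 7.49, 10.4 and 108.2 in Arid1a_Het. Of the 5 neutrophil genes tested, S100a8, S100a9, Csf3r and Cxcr2 rose in Ctrl (4 of 5) and 0 were called in Arid1a_Het against WT. Of all genes tested, 7.01% were called higher in Ctrl and 2.75% in either direction in Arid1a_Het. For S100a8, Csf3r and Cxcr2 no WT library reached 1 FPKM, so they were tested only through the group where they are high, and the count supports nothing. All 4 calls were lost without Ctrl 2, Ctrl 3 or WT 3, those of S100a8 and Cxcr2 also without Ctrl 1 or WT 2, and that of Cxcr2 without WT 1 (adjusted p up to 0.138). Pan-leukocyte markers summed to 4.83 to 18.3 FPKM in WT, 20.8 to 42.3 in Ctrl and 11.1, 18.1 and 58.4 in Arid1a_Het. In Ctrl 1 of 5 was called, the actin regulator gene Coro1a, beside 10.1% of all genes tested. That call was lost in 9 of 17 alternatives, with each single Ctrl or WT library left out among them (adjusted p up to 0.114). Arid1a_Het 1 and 2 had pan-leukocyte sums within the WT range, and Arid1a_Het 3 and every Ctrl library lay above it. Mcpt2 was 335 and 237 FPKM in Arid1a_Het 1 and 2, 389 in Arid1a_Het 3 and 181 to 320 in Ctrl. The part of leukocyte content in the Mcpt2 values was not tested. Macrophage markers summed to 12.6 to 133 FPKM in WT, 43.7 to 74.1 in Ctrl and 15.2 to 170.0 in Arid1a_Het. Of them 0 of 8 were called against WT, beside 10.1% of all genes in Ctrl and 2.75% in Arid1a_Het. Stroma markers summed to 9.54 to 98.4 FPKM in WT, 9.39 to 21.7 in Ctrl and 4.86 to 61.5 in Arid1a_Het, again with 0 of 6 called. Basophil markers summed to 1.46 to 2.77 FPKM in WT, 5.33 to 6.74 in Ctrl and 3.65 to 6.38 in Arid1a_Het, most of it Il3ra, and the basophil protease gene Prss34 was at most 0.0354 FPKM. The parts of these cells in the values of Srgn, Il1rl1, Csf2rb, Tgfb1 and the serpins were not tested. T and B cell genes were below the level for testing in all cases, and no macrophage, stroma or pan-leukocyte gene was called in Arid1a_Het against WT.

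The 5 genes most like Mcpt2 over the 9 libraries, by Pearson's r of log2(FPKM + 1), were Nrarp, S100a6, Isg20, Sdc1 and Ly6d, with r from 0.984 to 0.993. This measure only ranks the genes, because the WT libraries lie apart from the rest and that gap alone gives a high r. Nrarp, a target gene and feedback inhibitor of Notch signalling, stood at 9.06, 3.80 and 7.69 FPKM in WT, at 113, 194 and 171 in Ctrl, and at 263, 161 and 185 in Arid1a_Het. Like Mcpt2, all 5 of these genes were lowest in WT 2 and had no overlap between WT and transgenic libraries. Sdc1, the gene of the proteoglycan syndecan-1, stood at 65.5 to 79.0 FPKM in WT, 169 to 208 in Ctrl and 182 to 265 in Arid1a_Het. S100a6, a calcium-binding protein gene, was at 478 to 718, 1624 to 2009 and 1839 to 2652 FPKM in the same groups. None of the 5 is a known mast cell protease or receptor gene.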

How the data were processed

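RNA was sequenced from 9 samples of corpus glands (polyA RNA, stranded kit, per the labels' protocols). The authors deposited a table of FPKM values. STAR 2.4.2a and the builds GRCm38 and mm10 are named in the submitters' processing notes, and the counting tool is not given in the sources used here. In every library the FPKM values of all 18423 genes were whole multiples of what 1 read is worth (tolerance 0.01 reads), which gave the depth and the reads behind a value.

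Groups were compared with limma 3.58.1 in R 4.3.3 on log2(FPKM + 1), in a single fit of 3 group means with an intensity trend, over the 11209 genes with at least 1 FPKM in at least 3 libraries. This left out 7214 genes and none of the 10 described here. Calls are at a Benjamini-Hochberg adjusted p under 0.05 over all genes tested. The fits were tested on simulated data. The adjusted p-values of the 10 genes against WT, planned for Arid1a_Het, are not printed, since the genes were chosen on this difference. The alternatives were a pseudocount of 0.1, no filter, a minimum of 5 FPKM, median-ratio scaling, only the 2 groups compared, a replicate block, limma voom on the recovered reads, each library left out, and, chosen after seeing the data, both libraries with pancreas RNA left out. Ratios were compared by exact permutation with scipy 1.17.1. Coordinates and transcripts are from GENCODE M21 and promoters from RefSeq.

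Same-numbered WT and Ctrl libraries deviated together from their group means (r of 0.21, 0.34 and 0.14 across genes), which is seen in the data and not given by the labels. The main fit used no pairs, so its SE and p-values take no account of them. Pairs entered only in the replicate block among the alternatives. For same-numbered libraries of Arid1a_Het, r differed in sign (-0.28 to 0.56 with WT, -0.15 to 0.47 with Ctrl).

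The 10 genes and the gene lists were chosen with earlier results of these data known. From each list, the text names up to 4 called genes of lowest p, and beside them the 5 genes most like Mcpt2. The highest gene of each list was to be named too, but this was done for some lists only. Among those left out were Cd63, Ptpn6, Il18 and Spint2, which were not called in any comparison. Csf2rb, Kitl, Mcpt8, Ctsg, Prss34, Mrgprb1, Mrgprb2, Gata1, Il9, Il13, Dct and Atp4a were named after their values were seen, and so was the list of pancreas genes. The same is true of Mitf, Slc18a2, Pmel, Ccr3, Prg2, Epx and Ear6, and of Thbs4, Etv1, Alox5, Alox5ap, Rab27b, Csf2rb2, Lat2 and Lcp2.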

Additional observations from a re-analysis of the deposited data

How the results depend on the processing

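None of the 10 genes was called between Arid1a_Het and Ctrl under any of the 17 alternatives. Against WT, where the calls restate the choice of genes, the number called higher stayed at 3 under all 17. The number of genes called lower in Ctrl against WT was 1 (Kit) and became 0 with no filter, with a minimum FPKM of 5 (where Kit was not tested) and without the pancreas libraries, and ran from 0 to 1 with a library left out. In Arid1a_Het against WT this number was 0 and became 1 (Kit) with the replicate block, and ran from 0 to 1 with a library left out. The replicate block, which treats same-numbered libraries as pairs, changed no other call of the 10 genes. Among the calls of other genes that it added were Atp4a and Pgc in Ctrl against WT (adjusted p = 0.0132 and 0.0372). In Arid1a_Het against WT, where r between same-numbered libraries differed in sign, they were Chga, Epcam, Hs3st1, Il1rl1, Ltc4s, Serpinb9 and Tgfb1 (adjusted p = 0.0249 to 0.0451). Between Arid1a_Het and Ctrl the log2 fold change turned sign for Kit and Mcpt1 without Arid1a_Het 2 (with a library left out, Kit ran from -0.044 to 0.41 and Mcpt1 from -0.47 to 0.090), for Mcpt1 (0.029) with median-ratio scaling, and for Mcpt2 (-0.13) without the pancreas libraries. The causes were not tested. Depth limits Fcer1a, with at most 48 reads, Ms4a2, with at most 138, and Mcpt4 in WT. The mucosal excess over connective tissue genes moved by less than the spread between libraries in every alternative computed for it, none of which left out Mcpt4.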

Other observations

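Genes of other gland cells gave the following values beside the mast cell genes. Of 5 listed genes of the enterochromaffin-like cell, which like the mast cell stores histamine made by Hdc, 2 were called in Ctrl, beside 10.1% of all genes tested. Chga, a granule protein gene, fell by a log2 fold change of 2.03 (SE 0.51, limma adjusted p = 0.0378) and Cckbr, the gastrin receptor gene, fell by 1.24 (SE 0.33, adjusted p = 0.0452), while Chgb, Slc18a2 and Hdc were not called. Hdc itself stood at 0.971, 1.97 and 1.80 FPKM in WT, at 1.13, 3.94 and 2.55 in Ctrl and at 0.732, 1.49 and 2.23 in Arid1a_Het, so it overlapped between all groups, and neither cell can be read from it alone. Of 12 gland epithelium genes, 2 rose and 2 fell in Ctrl, beside 7.01% and 3.04% of all genes tested. Epcam (1.27, SE 0.24, adjusted p = 0.0160) and Krt18 (0.87, SE 0.22, adjusted p = 0.0378) rose, and the parietal cell gene Atp4b (-3.62, SE 0.96, adjusted p = 0.0443) and the mucin gene Muc5ac (-1.76, SE 0.48, adjusted p = 0.0484) fell. In Arid1a_Het against WT, Krt18 alone was called and rose (1.0, SE 0.22, adjusted p = 0.0467), beside 2.06% of all genes called higher. These calls were lost without any single Ctrl library and without WT 2, and all but that of Epcam were lost in 8 to 12 alternatives, among them the fit with no filter and that without the pancreas libraries (adjusted p up to 0.214).

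The eosinophil surface receptor gene Siglecf stood at 4.17, 3.12 and 2.73 FPKM in WT, at 2.07, 2.37 and 1.23 in Ctrl and at 0.801, 0.836 and 1.27 in Arid1a_Het. It fell in Arid1a_Het against WT by 1.13 (SE 0.21, limma adjusted p = 0.0274) and had -0.59 (SE 0.21, adjusted p = 0.10) in Ctrl. That call was lost in 8 of 16 alternatives, among them those without Arid1a_Het 1, Ctrl 1 or any single WT library and without the pancreas libraries (adjusted p up to 0.101). The other listed eosinophil genes in the table were below the level for testing, and 2 of them went the other way. Mean Ccr3 was 0.0472 FPKM in WT, 0.288 in Ctrl and 0.352 in Arid1a_Het. Mean Prg2 was 0.0171, 0.229 and 0.426 FPKM in the same groups. Epx and Ear6 were at most 0.0126 and 0.0364 FPKM, so eosinophils cannot be read from Siglecf alone. The receptor chain gene Il3ra, which basophils share with other cells, rose in Ctrl by 1.20 (SE 0.23, adjusted p = 0.0160) and had adjusted p = 0.217 in Arid1a_Het. The Ctrl call was lost without Ctrl 1 or Ctrl 3 (adjusted p up to 0.0694).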
